A study of Danio rerio with 12 samples.

Results

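The genes il13, il13ra2, il13ra1, stat6 and gata3 make up a small set around interleukin 13. They encode a cytokine, a pair of receptor chains, a transcription factor that interleukin 13 signals through, and a regulator of the cells that make the cytokine. They were chosen by symbol from a table of 27827 zebrafish genes, with the results of the same melanomas known, and all 5 were found once each and passed the filter on low counts. Their levels and their differences between the groups are therefore given as a description. A count of those that a fit across all genes calls is printed beside its background and again for the alternative settings, and nothing is read from it.

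In mouse and human, interleukin 13 and its relative interleukin 4 are the main cytokines of type 2 immunity, made by T helper 2 cells, innate lymphoid cells, mast cells, basophils and eosinophils. Interleukin 13 binds IL13RA1, which pairs with the interleukin 4 receptor alpha chain, and Janus kinases on the receptor tails phosphorylate STAT6, which enters the nucleus. IL13RA2 binds interleukin 13 tightly, has a short tail and is known as a decoy receptor, is itself induced by interleukins 4 and 13 in several mammalian cell types, and is known for high levels in human gliomas and some other tumours. GATA3 directs the T helper 2 programme in mouse and human T cells and also acts in skin, kidney and sympathetic neurons.

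RNA was measured in 12 melanomas of zebrafish (Danio rerio). MiniCoopR is a vector that returns mitfa, the melanocyte master regulator, to mitfa-deficient fish and expresses another gene in the same melanocyte lineage. Of the 12 tumours, 6 were of the genotype MiniCoopR-GFP and carried a fluorescent protein (the GFP group), and 6 were MiniCoopR-MyrRSK and carried RSK, a ribosomal S6 kinase downstream of ERK signalling, in the form labelled MyrRSK (the MyrRSK group). Both groups share the vector and neither was treated. The labels do not give the age, the strain, other alleles, the RSK gene used, or whether each melanoma came from its own fish, so any p-value measures the spread between these 12 samples.

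The libraries held 61750434 to 72257237 gene counts. All 12 melanocyte markers tested were detected in every melanoma, and mitfa, named after its value was seen, averaged 297 ± 110 CPM (read counts normalised to TMM-scaled library size; SD, n = 6) in GFP and 257 ± 43.7 in MyrRSK melanomas. Both groups carry mitfa on the vector, and whether reads of that copy are in these mitfa values was not tested. The summed level of the 12 markers varied widely, from 2204 CPM in GFP 6 to 37226 CPM in GFP 5. In MyrRSK melanomas it ran from 4496 to 19216 CPM. The median log2 fold change of MyrRSK over GFP across the 26866 genes tested was -0.07, and the 5th and 95th percentiles were -1.16 and 1.04. GFP 1 and GFP 2 lay at one end of the axis of largest variance in log2 CPM (18.2% of the total), well away from every other library, and several values below are given with and without both. On the next axis (16.4%) every MyrRSK library lay on one side of every GFP library, and GFP 4 and GFP 5 lay farthest from the MyrRSK libraries. Each sample is a whole tumour, so fewer cells of a type and less RNA per cell cannot be told apart for any gene below. CPM is not divided by transcript length, so levels are compared between samples and never between genes.

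The cytokine gene il13 (ENSDARG00000077809, chromosome 9, 56388221 to 56391170 on the zebrafish assembly Zv9), also named il4/13a and IL-4 in RefSeq, was low in GFP and higher in MyrRSK melanomas. In GFP melanomas its lowest level was 0.427 CPM, the median 2.38 and the highest 4.20, from 26 to 336 reads per library. In MyrRSK melanomas the lowest was 7.97 CPM, the median 15.4 and the highest 35.1. The groups did not overlap: the lowest MyrRSK library, MyrRSK 2, lay above the highest GFP library, GFP 6. The mean was 2.34 ± 1.66 CPM in GFP and 18.0 ± 9.51 CPM in MyrRSK tumours (SD, n = 6 each), 7.70 times as high, and the fitted log2 fold change was 2.94 ± 0.56 (SE). Within GFP the lowest libraries were GFP 5 and GFP 4, and the highest level was 9.85 times the lowest, against 4.40 times within MyrRSK. The authors' deposited table gives a log2 fold change of 2.03 for il13, from a fit whose settings are not given.

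The other type 2 cytokine gene of the fish, il4, named il4/13b in RefSeq, was listed under 2 gene IDs on chromosome 14 with 102843 bases between them. Each lay beside a gene named for kif3a, a kinesin motor subunit. Whether the 2 IDs are an assembly duplication or real copies was not settled, as no sequences were compared, so both values are uncertain. The first (ENSDARG00000075660, 25008840 to 25010870) ranged from 0 to 0.676 CPM in GFP and from 1.28 to 5.2 CPM in MyrRSK melanomas. It had 0 reads in GFP 4, where 3 reads would be 0.0449 CPM, and every MyrRSK library lay above every GFP library. Its log2 fold change was 3.41 ± 0.72 (SE), and it missed the threshold of an adjusted p under 0.05 with edgeR's quasi-likelihood test (Benjamini-Hochberg adjusted p = 0.0584) and limma-voom (adjusted p = 0.0597) but passed with DESeq2 (adjusted p = 1.38e-05). The edgeR value depended on single libraries: the adjusted p was 0.0265 without GFP 4 and 0.0482 without GFP 6. The second (ENSDARG00000087909, 24903942 to 24905996) averaged 3.15 ± 1.55 CPM in GFP and 8.92 ± 4.82 in MyrRSK melanomas, with 5 of 6 MyrRSK libraries above every GFP library. Its log2 fold change was 1.50 ± 0.50, with an adjusted p of 0.172 in edgeR and 0.0445 in DESeq2.

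**Figure D1:**
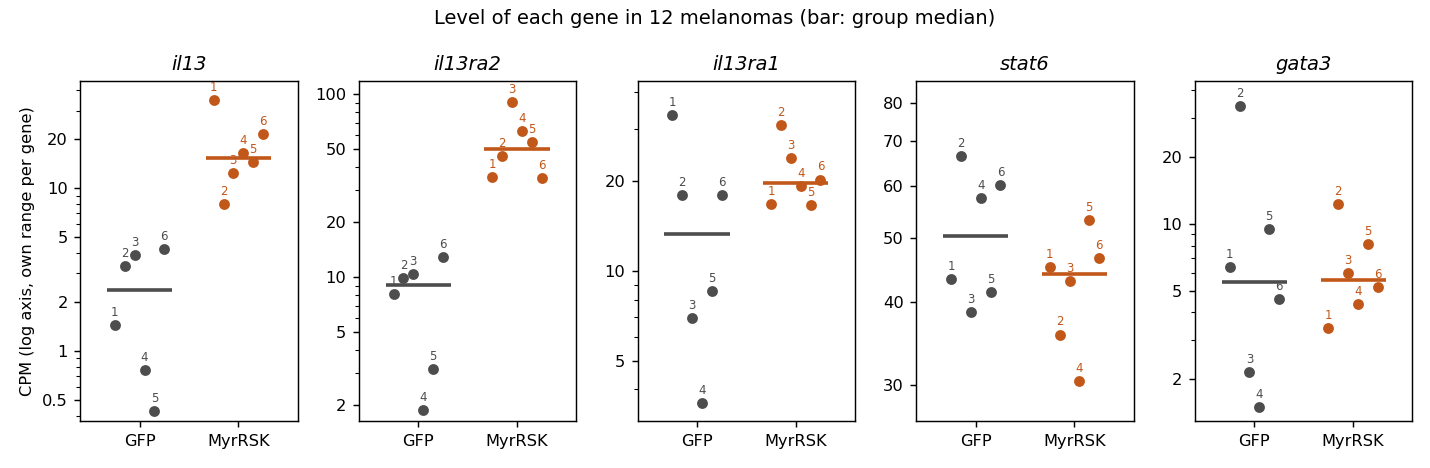
Level of the 5 genes in each melanoma, in CPM on a log axis with its own range for each gene; points are libraries, marked with their replicate number, and bars are group medians. For il13 and il13ra2 the 6 MyrRSK libraries lie above the 6 GFP libraries, while for il13ra1, stat6 and gata3 the groups overlap.

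The receptor gene il13ra2 (ENSDARG00000039436, chromosome 5, 38701556 to 38717941) showed the same separation. Its level in GFP melanomas was 1.88 CPM at the lowest, 9.03 at the median and 13 at the highest. In MyrRSK melanomas the lowest was 34.9 CPM, the median 50.6 and the highest 91.0. Every MyrRSK library again lay above every GFP library, and GFP 6 was the highest of its group and GFP 4 and GFP 5 the lowest, as for il13, whereas the highest MyrRSK library was MyrRSK 3 here and MyrRSK 1 for il13. The mean was 7.74 ± 4.35 CPM in GFP and 54.3 ± 21.1 in MyrRSK melanomas (SD, n = 6 each), 7.02 times as high, with a log2 fold change of 2.81 ± 0.45. The authors' deposited table gives 2.16 for il13ra2, and lists human IL13RA1 as its ortholog although the fish symbol is that of the decoy chain. It lists no human ortholog for il13ra1, for il13 or for either il4 ID. The roles named here follow the symbols, and which fish chain is the decoy was not tested.

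The gene il13ra1 (ENSDARG00000080020, chromosome 7, 20364484 to 20379426), which bears the symbol of the signalling chain, overlapped between the groups. Its GFP levels were spread widely, with 3.61 CPM at the lowest in GFP 4, a median of 13.3 and 33.4 at the highest in GFP 1. Its MyrRSK levels were closer together, from 16.6 through a median of 19.7 to 30.8 CPM. No MyrRSK library exceeded GFP 1, while 3 GFP libraries (GFP 3, GFP 4 and GFP 5) lay below all MyrRSK libraries. The log2 fold change was 0.53 ± 0.43, from 14.8 ± 10.9 to 21.2 ± 5.37 CPM. It was 0.95 without GFP 1, 0.32 without GFP 4, and 1.19, the highest of the 21 alternative values, without GFP 1 and GFP 2.

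The partner chains were tested as genes outside the set. The interleukin 4 receptor alpha gene il4r (ENSDARG00000031051, chromosome 3) averaged 34.0 ± 20.6 CPM in GFP and 63.4 ± 22.2 in MyrRSK melanomas, a log2 fold change of 0.90 ± 0.33 that did not pass (edgeR adjusted p = 0.217). Its highest libraries were GFP 2 with 75.0 CPM and MyrRSK 3 with 107 CPM, each far above the rest of its group, and without GFP 1 and GFP 2 the log2 fold change was 1.40. The common gamma chain, which pairs with the same alpha chain for interleukin 4, has the genes il2rga and il2rgb here. Their log2 fold changes were 0.47 ± 0.47 and 0.04 ± 0.50, with edgeR adjusted p of 0.665 and 0.979, and without MyrRSK 3 they were 0.06 and -0.38.

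Of the 5 genes, 2 (il13 and il13ra2) had an edgeR adjusted p under 0.05 and were higher in MyrRSK melanomas, where 0.29% of all genes tested were called higher, and 0 were lower, where 0.115% of all genes were called. The same 2 genes had no overlap between the groups, with every MyrRSK library higher, which held for 1.01% of all genes. The count of members called was 0 without GFP 2, MyrRSK 4 or MyrRSK 5 and 0 without GFP 1 and GFP 2 together, 2 without GFP 6, and 1 without any other single library. Over all 21 alternatives the fold change of il13 lay between 2.64 and 3.23 and that of il13ra2 between 2.6 and 3.02 on the log2 scale, and without GFP 1 and GFP 2 they were 2.96 and 2.94.

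**Figure D2:**
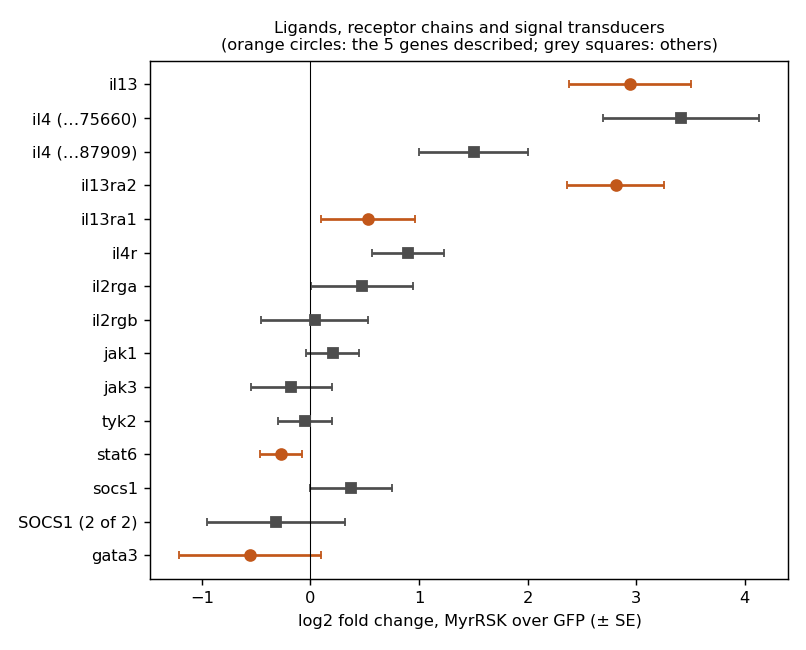
Log2 fold change of MyrRSK over GFP melanomas with its standard error (n = 6 per group) for cytokine, receptor, kinase, STAT6, SOCS1 and GATA3 genes, in that order; orange circles are the 5 genes described and grey squares the others. The cytokine genes and il13ra2 lie at 1.50 or higher, while the other receptor chains and the kinases drawn lie between -0.18 and 0.90. The JAK2 genes are not drawn.

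Downstream of the receptors, the transcription factor gene stat6 (ENSDARG00000015902, chromosome 23, 27319750 to 27363817) had overlapping levels. In GFP melanomas it ran from 38.7 CPM in GFP 3 through a median of 50.3 to 66.4 in GFP 2. In MyrRSK melanomas it ran from 30.4 CPM in MyrRSK 4 through a median of 44.1 to 53.2 in MyrRSK 5. The ranges overlapped, with 2 MyrRSK libraries below every GFP library, and the highest level was 1.72 times the lowest in GFP and 1.75 times in MyrRSK, the narrowest spread of the 5 genes in both groups. The log2 fold change was -0.27 ± 0.19, from 51.2 ± 11.5 to 42.4 ± 8.14 CPM, and it stayed between -0.36 and -0.19 in the 21 alternatives. These are RNA levels, and the phosphorylation that activates the protein was not measured.

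The Janus kinase genes whose products act on these receptors in mammals were tested too. The log2 fold change was 0.20 ± 0.24 for jak1, -0.18 ± 0.37 for jak3 and -0.05 ± 0.25 for tyk2, with edgeR adjusted p of 0.72, 0.851 and 0.943. The JAK2 genes jak2a and jak2b, named after their values were seen, stood at -0.22 ± 0.22 and -0.03 ± 0.21 (edgeR adjusted p = 0.653 and 0.956). SOCS1 is a feedback inhibitor of this signalling, and its genes socs1 and SOCS1 (2 of 2) gave 0.37 ± 0.38 and -0.32 ± 0.64, with edgeR adjusted p of 0.674 and 0.843. Without GFP 1 and GFP 2, socs1 stood at 0.83, and the signs of jak3 and tyk2 turned (0.10 and 0.01), as that of SOCS1 (2 of 2) did without GFP 2 (0.14) or GFP 6 (0.15). None of these kinase and SOCS1 genes had groups that separated.

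The T helper 2 regulator gene gata3 (ENSDARG00000016526, chromosome 4, 24141643 to 24151643) had a MyrRSK range that lay inside the GFP range. In GFP melanomas it ran from 1.50 CPM in GFP 4 through a median of 5.50 to 33.9 in GFP 2, where the next GFP library had 9.52 CPM. In MyrRSK melanomas it ran from 3.39 CPM through a median of 5.62 to 12.3, so the medians were close, while the means were 9.67 ± 12.2 and 6.57 ± 3.24 CPM. The log2 fold change was -0.56 ± 0.65, and its sign depended on the libraries and the tool: it was negative in 15 of 21 alternatives, 0.10 with limma-voom, 0.44 without GFP 2 and 0.57 without GFP 1 and GFP 2. Its relative gata2a, a gene of blood progenitors and mast cells in mammals, averaged 27.3 ± 20.4 and 31.6 ± 8.49 CPM (log2 fold change 0.21 ± 0.46, edgeR adjusted p = 0.854).

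Within the groups, no pair of the 5 genes passed a permutation test for a shared pattern. With each group's mean removed, log2 CPM of il13 and il13ra2 had a Pearson r of 0.60 and a Spearman rank correlation of 0.56 over the 12 libraries (permutation p = 0.105 and 0.124, labels shuffled within groups, two-sided). Without the 2 libraries farthest from the median of il13 the r was 0.40. The largest r were 0.63 for il13ra2 with il13ra1 and 0.61 for il13ra1 with gata3, and after adjustment over the 10 pairs the smallest permutation p was 0.427 for Pearson's and 0.68 for Spearman's coefficient. GFP 4 was the lowest of the 12 libraries for il13ra2, il13ra1 and gata3 and the next to lowest for il13, while for stat6 it ranked 3 of 12 from the top.

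The genes whose levels followed each member most closely within groups were different for each, among 16402 candidates with a mean normalised count of at least 50. For il13 they were lysmd2, mmd2b and zbtb5, with r of 0.907, 0.90 and 0.898. For il13ra2 they were rac2, flt3, a receptor of blood progenitors and dendritic cells, and ighd1-2, with r of 0.949, 0.93 and 0.928. For il13ra1 they were ccdc151, tmem154 and pdgfra, a growth factor receptor of fibroblasts, with r of 0.967, 0.966 and 0.961. For stat6 the highest r was 0.886, with the amine receptor gene taar19c, and for gata3 it was 0.959, with MFSD1, followed by tpp1, a lysosomal protease, at 0.943. These are descriptions over 12 libraries that share depth and tumour makeup, picked as the highest of many.

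The genes around the set were taken from 8 lists of textbook roles, which matched 147 genes and left 144 after the filter on low counts. With edgeR 0 of them were called in either direction, where 0.29% of all genes were called higher and 0.115% lower. Counting an unadjusted p under 0.05, edgeR had 15 of them higher and 5 lower, and 7.18% and 8.33% of all genes. DESeq2 called 8 higher and 2 lower, against 2.91% and 2.83% of the 27431 genes it tested. The authors' deposited table also lists 8 and 2, where it calls 2.88% of its genes higher and 2.29% lower. With limma-voom 0 were called in either direction, against 0.32% and 0.0744% of all genes. The log2 fold change was positive in 86 of the 144 genes and negative in 58, with a median of 0.21, where 44.9% of all genes were positive and their median was -0.07. The median of the 144 was 0.10 without MyrRSK 3 and 0.44 without GFP 1 and GFP 2.

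**Figure D3:**
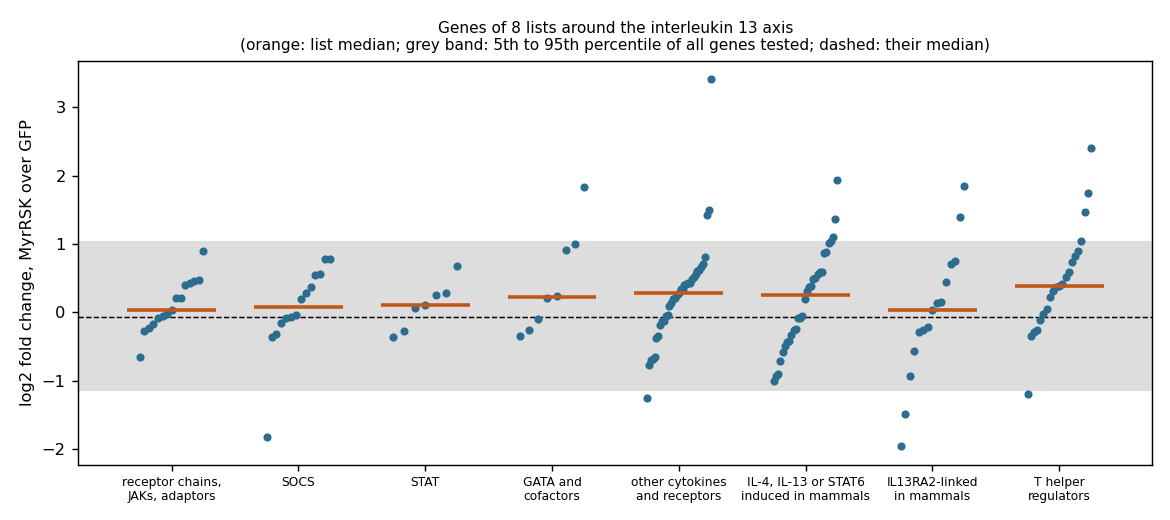
Log2 fold change of MyrRSK over GFP melanomas for each tested gene of the 8 lists, ordered by value within a list; orange bars are list medians, the grey band holds the 5th to 95th percentile of all genes tested and the dashed line is their median. The medians run from 0.03 to 0.39, and the highest point is il4 at 3.41.

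Of 15 receptor chains, kinases and adaptors, 8 had a positive and 7 a negative fold change, with a median of 0.04. The highest by mean count were jak1 and ptpn11a, the gene of the phosphatase SHP2, at -0.08 ± 0.21 (edgeR adjusted p = 0.882). Among 14 SOCS family inhibitors the median was 0.08, with socs3a at 0.78 ± 0.41 and socs5b at 0.19 ± 0.24 (edgeR adjusted p = 0.379 and 0.736), and without GFP 1 and GFP 2 socs3a stood at 1.43. Named after its value was seen, socs8, whose current name is cishb, averaged 5.23 ± 3.55 CPM in GFP and 1.48 ± 0.812 in MyrRSK melanomas, with 5 of 6 MyrRSK libraries below every GFP library. Its log2 fold change was -1.82 ± 0.49 (adjusted p = 0.103 in edgeR and 0.00685 in DESeq2), and -1.07 without GFP 1 and GFP 2. The gene cish of the same list, also named after its value was seen, went the other way. For cish the mean was 4.98 ± 2.11 CPM in GFP and 8.58 ± 1.37 in MyrRSK melanomas. Its level exceeded the GFP maximum of 7.41 CPM in 4 of 6 MyrRSK melanomas. The log2 fold change of cish was 0.78 ± 0.30 (adjusted p = 0.226 in edgeR and 0.104 in DESeq2). The median of the 7 other STAT genes was 0.10, and stat2 and stat1b, which serve interferon signalling, stood at 0.06 ± 0.31 and 0.68 ± 0.45 (edgeR adjusted p = 0.941 and 0.504). The 8 GATA family and cofactor genes had a median of 0.23, and zfpm1, the gene of the GATA partner FOG1, stood at -0.35 ± 0.26 (edgeR adjusted p = 0.549).

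Genes that interleukin 4, interleukin 13 or STAT6 induces in mouse or human macrophages, epithelium or fibroblasts numbered 30 tested, with a median of 0.26 that was -0.03 without MyrRSK 2 and 0.03 without MyrRSK 3. Of these 16 were positive and 14 negative. The highest by mean count were timp2b, a protease inhibitor gene, at 0.51 ± 0.88 and the mannose receptor gene mrc1b at 0.87 ± 0.40 (edgeR adjusted p = 0.817 and 0.322). GFP 1 held far more timp2b than the other GFP libraries, and without it the value was 2.27, while that of mrc1b was 1.37 without GFP 2. Without GFP 1 and GFP 2 together they were 2.84 and 1.45. The related mrc1a, named after its value was seen, averaged 29.0 ± 16.5 CPM in GFP and 74.8 ± 26.2 in MyrRSK melanomas, with 5 of 6 MyrRSK libraries above every GFP library. Its log2 fold change was 1.37 ± 0.42 (adjusted p = 0.143 in edgeR and 0.036 in DESeq2). The cadherin gene CDH26, induced in human epithelium and also named after its value was seen, lay the other way at -1.01 ± 0.34 (edgeR adjusted p = 0.18).

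In mammalian cells IL13RA2 has been tied to TGF-beta 1 and to matrix proteases, and 15 such genes were tested, with a median of 0.03. This median rested on single libraries: it was 0.68 without GFP 1, 0.76 without GFP 1 and GFP 2, and -0.20 without MyrRSK 2. The TGF-beta 1 genes tgfb1a and tgfb1b stood at -0.21 ± 0.33 and -0.29 ± 0.36 (edgeR adjusted p = 0.792 and 0.733). The collagenase gene mmp13b averaged 4.95 ± 1.78 CPM in GFP and 17.9 ± 12.3 in MyrRSK melanomas, with 5 of 6 MyrRSK libraries above every GFP library and MyrRSK 6 at 4.21 CPM within the GFP range. Its log2 fold change was 1.85 ± 0.48 (adjusted p = 0.0976 in edgeR and 0.00561 in DESeq2). Its relatives mmp13a and mmp9 stood at 1.40 ± 1.16 and 0.76 ± 0.90 (edgeR adjusted p = 0.6 and 0.719), with GFP 1 and MyrRSK 2 far above the other libraries for both. Without GFP 1 they stood at 3.57 and 2.37, without GFP 1 and GFP 2 at 5.2 and 2.72, and without MyrRSK 2 at 0.37 and -0.08.

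Among 35 other type 2, regulatory and common-chain cytokines and receptors the median was 0.28, and il4 was the gene with the smallest adjusted p. The highest by mean count were csf1ra, the macrophage growth factor receptor, at 0.62 ± 0.42 and the cytokine receptor chain crfb5 at 0.10 ± 0.27 (edgeR adjusted p = 0.51 and 0.893). Without GFP 1 and GFP 2, csf1ra stood at 1.14. The oncostatin M receptor gene osmr, named after its value was seen, stood at 1.42 ± 0.36 (adjusted p = 0.0906 in edgeR and 0.00282 in DESeq2). The 21 T helper lineage regulators other than gata3 had a median of 0.39, with runx3 at -0.25 ± 0.39 and mafba at -0.11 ± 0.26 (edgeR adjusted p = 0.788 and 0.87), and runx3 stood at 0.28 without GFP 3. The regulatory T cell factor gene foxp3a and rorcb, a relative of the T helper 17 factor gene, were named after their values were seen. The first averaged 6.21 ± 6.11 CPM in GFP and 20.9 ± 13.4 in MyrRSK melanomas (log2 fold change 1.75 ± 0.58), and the second 5.36 ± 1.91 and 2.34 ± 1.32 CPM (-1.20 ± 0.38). Their adjusted p were 0.172 and 0.149 in edgeR, and 0.0388 and 0.0349 in DESeq2.

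On the chromosome, 0 of the genes beside il13 and il13ra2 were called higher in MyrRSK melanomas. Over all genes, edgeR called 0.29% higher and 0.115% lower, so 0 calls among so few neighbours carries little information. Within 100 kb, 5 neighbours of il13 were tested and edgeR called 0 of them, and 1 of them was lower by the unadjusted p (8.33% of all genes). The nearest, the DNA repair gene rad50, which also lies beside IL13 in mouse and human, was 7290 bases away and stood at -0.09 ± 0.22 (edgeR adjusted p = 0.877). Of the 5 tested neighbours of il13ra2, edgeR called 0, and 2 were lower by the unadjusted p. The nearest, tagln2, at 5943 bases, stood at 0.12 ± 0.56, and lrch2, at 14238 bases, at -1.06 ± 0.32 (edgeR adjusted p = 0.932 and 0.135). The median fold change of the neighbours was -0.26 around il13 and -1.06 around il13ra2, and within 200 kb, chosen after seeing the data, it was -0.09 over 7 genes and -0.35 over 13. Around il13ra1, stat6 and gata3, 3, 6 and 1 neighbours were tested and edgeR called 0, with 1 beside il13ra1 higher by the unadjusted p (7.18% of all genes) and none lower. Beside the il4 IDs, KIF3A (1 of 2), 779 bases from the first, stood at 0.58 ± 0.18, and kif3a, 186 bases from the second, at 0.49 ± 0.23. Their edgeR adjusted p were 0.145 and 0.33, and the unadjusted p 0.00638 and 0.0532. The other neighbours there, cpeb4, msxa and SH3RF2, stood at -0.38, -0.42 and -0.35. By start and end, no listed gene overlapped any of the 5 genes. Transcripts that are not listed could not be checked, and whether their reads enter these counts was not tested.

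**Figure D4:**
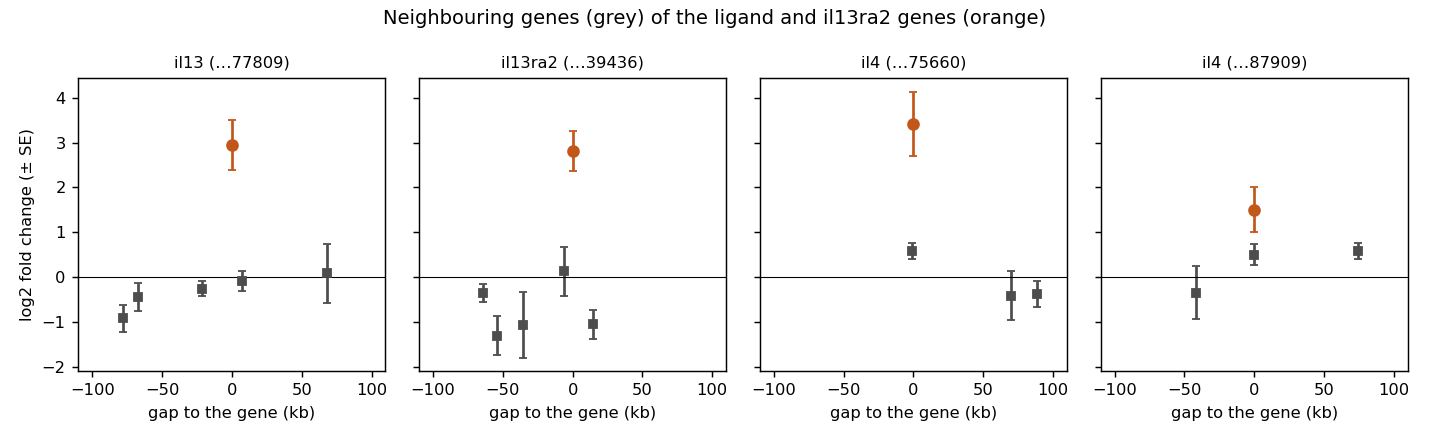
Log2 fold change of MyrRSK over GFP melanomas with its standard error (n = 6 per group) for il13, il13ra2 and the 2 il4 gene IDs (orange circles, at 0 kb) and for every tested gene within 100 kb (grey squares), against the gap between the genes in kilobases. The neighbours lie between -1.31 and 0.58, below the gene at the centre of each panel. The central genes were chosen with results of these melanomas known, so their place above the neighbours is a description.

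Markers of the cell types that could hold these genes were read from the same libraries. The summed level of 13 T cell markers ran from 89.6 to 519 CPM in GFP and from 168 to 553 CPM in MyrRSK melanomas, and that of 9 eosinophil and mast cell markers from 581 to 1717 and from 838 to 1712 CPM. For 26 macrophage markers the sums ran from 867 to 3644 and from 1985 to 5351 CPM, and for 12 neutrophil markers from 61.1 to 687 and from 267 to 1352 CPM. The summed levels overlapped in all 4 lists. Of their markers edgeR called 0, where it called 0.29% of all genes higher and 0.115% lower. By the unadjusted p, 2, 3, 5 and 4 markers passed as higher and 0, 0, 2 and 0 as lower, in that order. Over all genes tested, 7.18% passed as higher and 8.33% as lower. The mean log2 CPM of the eosinophil and mast cell markers, by contrast, lay between 2.2 and 3.77 in GFP and between 3.88 and 4.36 in MyrRSK melanomas, without overlap. Of the 9 markers of this list 4 are also in other lists, cpa5 and mpx as neutrophil, kita as melanocyte and gata2a as hair cell and kidney duct markers. The median log2 fold change was 0.62 for the eosinophil and mast cell list. It was 1.18 for the neutrophil list, where the mean log2 CPM of the groups overlapped. No marker of these 4 lists was at 0 in every library, and 2 macrophage markers, both copies of MFAP4, were at 0 in some.

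Some libraries at the ends of the range for il13 and il13ra2 were also at the ends of immune lists. GFP 4 and GFP 5, the lowest for il13 and il13ra2, also had the lowest mean log2 CPM for T cells (1.21 and 1.63) and macrophages (3.05 and 2.77). GFP 6, the highest GFP library for both genes, had the highest GFP value for T cells (3.98), B cells (4.31) and macrophages (4.35). Its value for melanocytes (5.88) was the lowest. MyrRSK 3, the highest for il13ra2, was the highest of all libraries in the sums for T cells, B cells and macrophages, while MyrRSK 1, the highest for il13, was not. The 17 skeletal muscle markers differed most, from 5.77 to 18.3 CPM in GFP and from 9.87 to 506 CPM in MyrRSK melanomas. Of these markers edgeR called 2 higher, where 0.29% of all genes were. By the unadjusted p, 14 of the 17 were higher and 0 lower, against 7.18% and 8.33% of all genes. Their median log2 fold change was 4.09. In MyrRSK 3 the mean log2 CPM of the muscle markers was -1.36, inside the GFP range of -2.31 to -0.60. That library held 91.0 CPM of il13ra2 and 12.4 CPM of il13. The part of muscle content in these levels was not tested, and 1 library cannot show it. Among the lists of other cells that use gata3 in mammals, those of keratinocytes (14 markers), of neurons (12) and of hair cells and kidney duct (8) had 0 markers called by edgeR. By the unadjusted p they had 0 and 3, 2 and 1, and 1 and 0 markers higher and lower. The lists of B cells (10 markers), endothelium (9), fibroblasts (13) and melanocytes (12) also had 0 markers called, with 0, 0, 5 and 1 higher and 0, 0, 0 and 2 lower by the unadjusted p. Over the whole table edgeR called 0.29% of genes higher and 0.115% lower, so 0 calls in lists of this size carries little information. The part of cell makeup in the levels of the 5 genes was not tested.

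**Figure D5:**
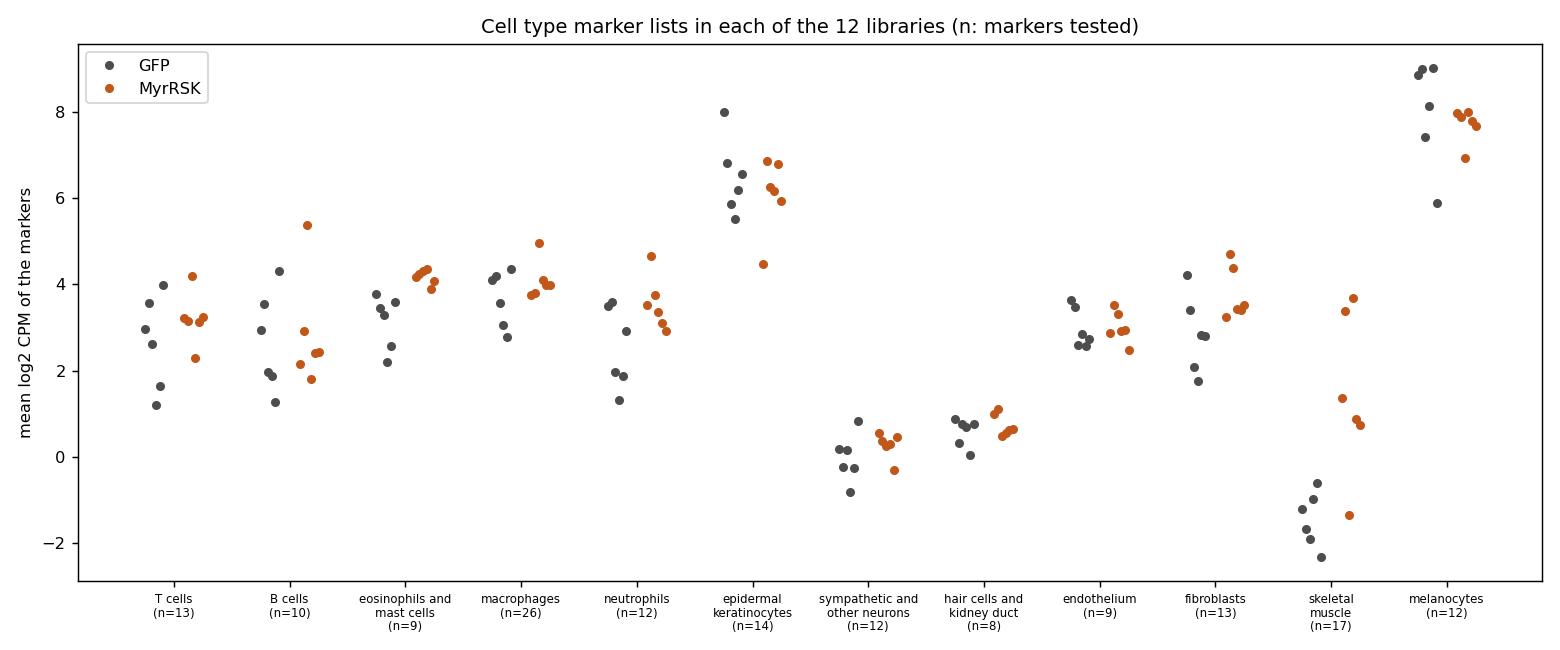
Mean log2 CPM of the tested markers of 12 cell types in each melanoma (grey: GFP, orange: MyrRSK; n is the number of markers; points of a group are in replicate order). The groups overlap in every list except that of eosinophils and mast cells, where every MyrRSK melanoma lies above every GFP melanoma; in the skeletal muscle list MyrRSK 3 lies among the GFP melanomas.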

How the data were processed

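PolyA RNA of 12 zebrafish melanomas was sequenced, and the deposited table of the whole series was used. It holds, for each library, the whole-number count of reads on each gene, deposited by the authors without normalization. The authors' second column per library is a signal, the count divided by 1 size factor per library (relative spread of the ratio at most 9.84e-10), and was not used for tests. The table also holds deposited log2 fold changes with standard errors, a test statistic, which is a score, and p-values, all from the authors' own comparison. STAR 2.6.1d, HTSeq 0.6.0, DESeq2 and the Zv9 genome build were used, per the submitters' processing notes. Neither the annotation release nor the strand setting is stated in the labels. Genes with a mean normalized count under 5.08 are not analysed here, nor are transcript lengths or sequences.

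The filter filterByExpr of edgeR 4.0.16 (R 4.3.3) left 26866 genes. After TMM scaling, its quasi-likelihood test was run with robust fitting and the group as single term, and a gene is called where its p, adjusted by Benjamini and Hochberg's method over all genes, is under 0.05. The SE of a fold change is its size divided by the square root of F. CPM uses TMM-scaled library sizes, and log2 CPM a prior count of 1. Depths were 61750434 to 72257237 counts, which makes sampling noise minor except in genes with few reads. As a check for a library deposited more than once, counts were compared in 66 pairs, and the smallest chi-square per degree of freedom was 177.

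The 5 genes, the 8 pathway lists and the 12 marker lists were chosen with earlier results of these data known. Lists were matched on the file's symbols and current names, known for 68.5% of the IDs. The rule for named genes takes the 5 genes, the il4r, il2rg, jak1, jak3, tyk2, socs1, tgfb1 and mmp13 genes, per list up to 3 called genes or, with none called, the 2 with the highest mean, and per member the 3 genes most like it. List genes outside it whose levels or fold changes are given are said to be named after their values were seen, apart from il4. Neighbours, markers shared between lists and genes named only for their calls are not marked in this way.

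Alternatives were DESeq2 and upper-quartile scaling, no filter, prior counts of 0.5 and 5, DESeq2 1.42.0, limma-voom (limma 3.58.1), the replicate number as a block, each library left out, and GFP 1 and GFP 2 left out together. The windows of 50 and 200 kb around the members and the members' calls under each alternative were added after seeing the data. The procedure was tested on simulated counts. Figures were drawn with matplotlib 3.10.9.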

Additional observations from a re-analysis of the deposited data

Results flagged for a closer look

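In 66 groups of 6 libraries (33 genes), 15 held a library set apart from the others of its group, its gap to the nearest one being over 0.625 of the group's range. This limit flags about 1 in 20 groups of normally distributed values. It was applied to CPM without logs, where a high library is set apart more readily, so the 15 flags are not compared with that rate. Of the 5 genes only gata3 was flagged, with 33.9 CPM in GFP 2, where the next GFP library had 9.52.

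MyrRSK 3, which also had the highest T cell, B cell and macrophage marker sums, stood apart for several receptor and kinase genes, though not for il13ra1 or jak1: il4r with 107 CPM, il2rga with 62.6, il2rgb with 6.69, jak3 with 51.2 and tyk2 with 82.0. In GFP 2 il4r (75.0 CPM) and mrc1b (249 CPM) stood apart. GFP 1 did so for mmp13a (512 CPM), mmp9 (718 CPM) and timp2b (560 CPM), and MyrRSK 2 for mmp13a (974 CPM) and mmp9 (892 CPM). The runt factor gene runx3 stood apart in GFP 3 (736 CPM) and in MyrRSK 4 (381 CPM).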

How the results depend on the processing

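The fold changes of the 5 genes moved by less than 1 SD between libraries in 105 of 105 alternative values. That SD is a wide margin: gata3 ran from -0.83 to 0.57 and kept its sign in only 15 of 21, and il13ra1 ran from 0.32 to 1.19. List medians near 0 also changed sign: the ranges were -0.06 to 0.21 for receptor chains, -0.01 to 0.19 for STAT genes, -0.03 to 0.47 for genes induced by interleukins 4 and 13, and -0.20 to 0.76 for IL13RA2-linked genes. No called value changed sign. Counts of calls moved more. DESeq2 gave 798 genes higher and 775 lower over the whole table, where edgeR gave 78 and 31, and limma-voom gave 20 lower; without GFP 1 and GFP 2 the counts were 23 and 7. With single libraries left out, genes higher ranged from 1 to 104 and genes lower from 0 to 84. Pathway genes called higher ranged from 0 to 2 (foxa3 without GFP 3, il4 without GFP 4 or GFP 6, foxp3a without GFP 6), and DESeq2 gave 8 higher and 2 lower. Members called higher ranged from 0 to 2 with single libraries left out and were 0 without GFP 1 and GFP 2. The cause was not tested. Windows of 50 and 200 kb around the 5 genes, like 100 kb, held 0 neighbours called by edgeR. Over the whole table it called 0.29% of genes higher and 0.115% lower. Upper-quartile scaling moved the median of all genes from -0.07 to -0.10.

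The replicate numbers do not pair the samples: correlations of same-numbered deviations ran from -0.148 to 0.103. With the number as a block, 6 genes were higher and 0 lower over the whole table, 0 members were called, and the fold changes of il13 and il13ra2 were 3.22 and 2.98.

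Depth limits only the lowest genes, such as il4 with 0 to 54 reads in GFP melanomas. The spread between 6 samples a group limits the rest.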
